A study of Mus musculus with 12 samples.

Results

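The response of inguinal white adipose tissue (iWAT) to 24 h of cold was compared between mice with and without ATF4 in adipocytes. For each gene, the difference of cold responses was the log2 change from room temperature (RT) to cold in Atf4AKO iWAT minus the same change in Atf4WT iWAT, on log2(normalized count + 1). All 12 libraries entered this difference, and of the 14159 genes listed, the 13404 whose normalized counts averaged at least 10 across libraries were tested. A negative difference is a lower response in Atf4AKO, which can be a smaller rise or a larger fall. Atf4AKO mice carried Atf4 flox/flox alleles and Adipoq-Cre, and Atf4WT mice were Atf4 fl/fl littermates without Cre. Both genotypes were on the C57BL/6 background and were either housed at RT or exposed to 5 °C, giving 4 groups of 3 biological replicates numbered 0 to 2. Cre driven by the adiponectin gene acts in adipocytes, so the other cells of the fat pad still carried *Atf4*. Ages and sexes of these mice are not given in the sources used here, nor is it stated whether the lymph node of the pad was removed. RNA came from whole tissue, in which fewer cells of a type and less RNA per cell cannot be told apart.

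Cold activates sympathetic nerves of subcutaneous fat, and some white adipocytes then take on features of brown adipocytes: they make UCP1, which uncouples respiration from ATP synthesis, and build more oxidative machinery. ATF4 is a transcription factor of the integrated stress response, translated when eIF2α is phosphorylated. It is known for inducing amino acid synthesis and transport, tRNA charging and the mitochondrial enzymes of one-carbon metabolism, and it binds the C/EBP-ATF response element.

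The libraries held 25719476 to 29105147 reads on listed genes. White adipocyte markers (14 genes) were abundant, with mean log2 levels of 15.5 to 16.2 in the 12 libraries, while other cell types varied between libraries of a group. Skeletal muscle markers (10 genes) summed to 145501 normalized counts in RT Atf4WT replicate 2, to 49760 in cold Atf4WT replicate 0 and to 7092 in cold Atf4AKO replicate 1, against 1485 to 2526 in the other 9 libraries. The lymphocyte score, the mean log2 level of 36 markers of B cells and T cells, was 4.09, 3.82 and 6.83 in RT Atf4WT (replicates 0, 1 and 2), 6.94, 8.92 and 9.41 in cold Atf4WT, 5.13, 4.09 and 5.02 in RT Atf4AKO, and 4.95, 3.39 and 3.97 in cold Atf4AKO. The 3 cold Atf4WT libraries thus stood above the other 9, by little for replicate 0 against RT Atf4WT replicate 2. No marker was at 0 in any library, because the listed genes have at least 1 read in every library.

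The cold responses of the genotypes differed at the threshold of the study (fold change over 1.5 and unadjusted p under 0.05, here limma) in 621 of 13404 genes (4.63%). Most of these were weaker or absent rises in Atf4AKO: 559 genes (4.17%) had a lower response and 62 genes (0.463%) a higher response, so that 90.0% of the called genes lay on one side. At any fold, 928 genes (6.92%) had a p under 0.05, where 5% of the genes tested is 670.2 genes. No gene had a Benjamini-Hochberg adjusted p under 0.05 in limma, in which the smallest adjusted p was 0.474 and the smallest unadjusted p 0.000153. On reads recovered from the values, edgeR's quasi-likelihood test gave 0 genes at the adjusted threshold and 593 at that of the study, while DESeq2 gave 132 and 639, and pyDESeq2 gave 133 and 640. The 621 calls fell to 409 without cold Atf4WT replicate 2 and rose to 868 without cold Atf4WT replicate 0, and in the latter fit 64 genes passed the adjusted threshold in limma.

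**Figure D1:**
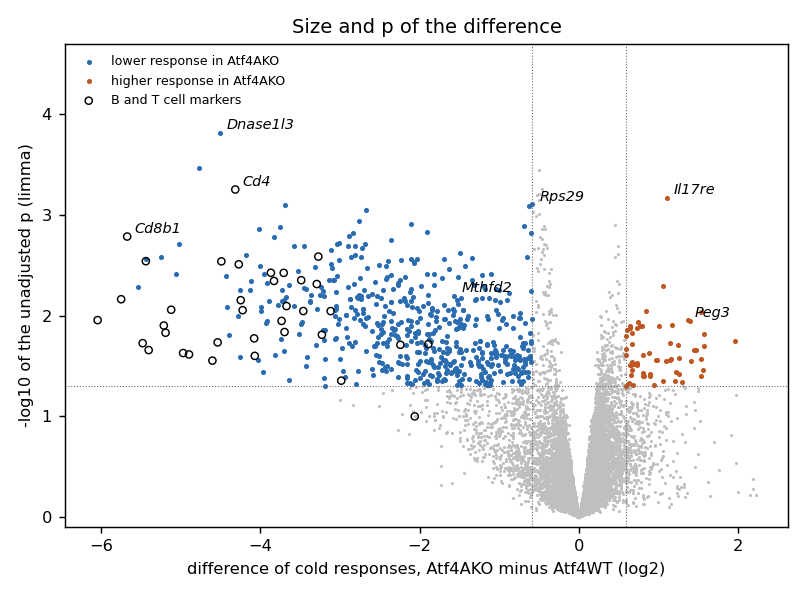
Difference of cold responses (Atf4AKO minus Atf4WT, log2) on the x axis against −log10 of the unadjusted limma p on the y axis, 1 point per tested gene, with dotted lines at a fold of 1.5 and p of 0.05. The 559 called genes with a lower response reach −6.04 on the left, among them 35 of the 36 B and T cell markers (open circles), while the 62 with a higher response stay below 2.

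Precision set what could be seen. The median standard error of the difference was 0.21 (log2), and the 95% interval lay within ±1 log2 unit for 9418 genes (70.3%) and within a fold of 1.5 for 5922 genes. For those 5922 genes a difference over 1.5-fold lay outside the interval, whereas for most lymphocyte genes the interval spanned several log2 units. The median difference of all genes was 0.03.

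Taken gene by gene, the cold response of each genotype was measured on separate libraries. In Atf4WT 2846 genes (21.2%) were called, 1459 up (10.9%) and 1387 down (10.3%). In Atf4AKO 2309 genes (17.2%) were called, 1113 up (8.3%) and 1196 down (8.92%). Across the 13404 genes, Pearson's r between the responses was 0.59 and Spearman's rho 0.68, and 79.7% of the genes had the same sign. The least squares slope was 0.49 for Atf4AKO on Atf4WT and 0.72 for Atf4WT on Atf4AKO, and the major axis slope was 0.73. These are descriptions across genes, which are not replicates, and noise in the fold changes lowers both least squares slopes. Without cold Atf4WT replicate 0 the slope of Atf4AKO on Atf4WT was 0.37, and without cold Atf4WT replicate 2 it was 0.57. Leaving out the 52 tested genes of the B cell, T cell, plasma cell, lymph node stroma and MHC class II lists gave a slope of 0.54 and an r of 0.63.

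**Figure D2:**
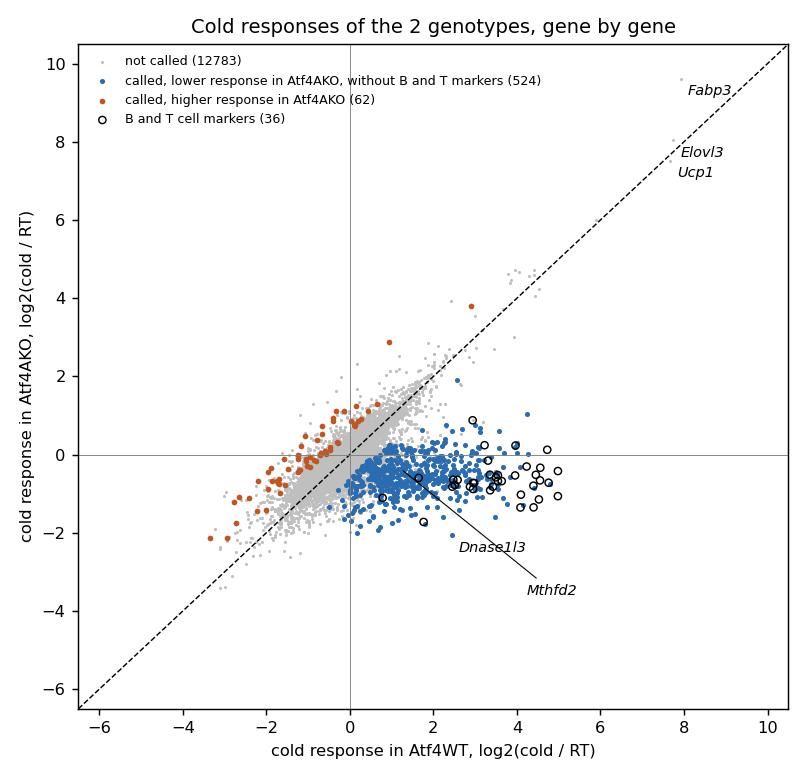
Log2 cold response of each tested gene in Atf4WT (x axis) and Atf4AKO (y axis), with the line of equal responses dashed. *Ucp1* and *Elovl3* lie near the line at the upper right, and *Fabp3* lies above it, at 7.92 in Atf4WT and 9.61 in Atf4AKO. The called genes with a lower response in Atf4AKO form a horizontal band with Atf4WT responses above 0 and Atf4AKO responses near or below 0.

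Genes called in one genotype mostly had the same sign in the other. Of the 1459 genes that rose in Atf4WT, 74.2% had a positive response in Atf4AKO and 783 (53.7%) were also called up there, with median responses of 0.99 and 0.67. Of the 1387 that fell in Atf4WT, 98.8% also had a negative response in Atf4AKO and 781 (56.3%) were called down, with medians of −0.91 and −0.69. Chosen the other way, 99.4% of the 1113 genes that rose in Atf4AKO and 91.6% of the 1196 that fell there had the same sign in Atf4WT, with 70.4% and 65.3% called. Genes chosen in one genotype tend to have their larger value there, so each pair of medians leans toward the genotype of choice. In all, 1564 genes were called in the same direction in both genotypes, and for 1031 of them (65.9%) the 95% interval of the difference lay within ±1 log2 unit. With limma and adjusted p under 0.05 in both genotypes, 2638 genes moved in the same direction.

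Thermogenic genes rose in both genotypes. *Ucp1* had 439, 685 and 204 normalized counts in RT Atf4WT (replicates 0, 1 and 2), 94771, 73632 and 74684 in cold Atf4WT, 1097, 441 and 298 in RT Atf4AKO, and 81033, 119558 and 90868 in cold Atf4AKO. The cold groups did not overlap the RT groups, and the cold groups of the genotypes overlapped each other. Its log2 response was 7.67 in Atf4WT and 7.51 in Atf4AKO, with a difference of −0.16 (95% interval −1.62 to 1.31), whose sign changed without RT Atf4AKO replicate 0 (0.37) or RT Atf4WT replicate 2 (0.32).

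*Ppargc1a*, the coactivator of mitochondrial biogenesis, had 398, 323 and 262 counts in RT Atf4WT and 1555, 1029 and 1382 after cold, against 253, 318 and 303 and then 2237, 1159 and 2001 in Atf4AKO. The cold groups overlapped between genotypes. Its log2 response was 2.01 in Atf4WT and 2.57 in Atf4AKO, and the difference of 0.57 ± 0.35 (SE) was not called. It was called without cold Atf4AKO replicate 1 and with limma array weights. *Cox8b*, a cytochrome c oxidase subunit of brown and beige adipocytes, responded by 1.48 and 1.41, with an interval of the difference from −0.81 to 0.67.

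Other genes led the shared rise. The fatty acid binding protein *Fabp3* rose by 7.92 log2 units in Atf4WT and 9.61 in Atf4AKO. Its RT Atf4WT counts were 7.35, 9.62 and 106, the last in replicate 2, the library with the most skeletal muscle marker counts, and without that library the response of Atf4WT was 9.09. The elongase *Elovl3* rose by 7.75 and 8.04, and the deiodinase *Dio2*, which makes active thyroid hormone, by 5.88 and 6.0. Glycerol kinase (*Gk*) had the tightest estimate among these, 4.29 and 4.56 with an interval of the difference from −0.26 to 0.81. *Slc25a34*, a mitochondrial carrier, *Tmem82* and *Cyp2b10* completed the 8 largest shared rises with a mean of at least 50 counts. *Cyp2b10* belongs to a family of close copies among which uniquely mapped reads can be split.

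As a list, 23 of 30 thermogenic genes rose in Atf4WT and 24 in Atf4AKO, and the median response was 1.75 and 2.15, with r of 0.99 and a slope of 1.05 between genotypes over the 30 genes. Of these, 1 was called in the difference, where 4.63% of all genes tested were. Of the 30 differences 23 were above 0 and 7 below, beside 43.5% below 0 over all genes. The called gene was *Cpt1b*, the carnitine palmitoyltransferase that brings long-chain fatty acids into mitochondria. It had 72.6, 120 and 116 counts in RT Atf4WT and 659, 771 and 865 after cold, and 90.2, 85.6 and 55.7 and then 900, 1025 and 1282 in Atf4AKO. All 3 cold Atf4AKO libraries were above all 3 cold Atf4WT libraries. Its response was 2.91 in Atf4WT and 3.79 in Atf4AKO, a difference of 0.88 ± 0.34 (SE, limma, adjusted p = 0.586).

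Oxidative and mitochondrial gene lists had close medians in the genotypes. Among 83 OXPHOS genes, which encode respiratory chain and ATP synthase subunits, 47 rose in Atf4WT and 46 in Atf4AKO, with medians of 0.61 and 0.64, and all 83 had the same sign in both genotypes. None was called in the difference by limma, 0 had a p under 0.05, and the 95% interval lay within ±1 log2 unit for 79 and within a fold of 1.5 for 58. The slope across these genes was 1.00 and r was 0.93. For 76 mitochondrial ribosome genes the medians were 0.42 and 0.41, and the interval lay within a fold of 1.5 for 68.

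Mitochondrial chaperones and proteases (15 genes) had medians of 0.64 and 0.66, with all 15 intervals within a fold of 1.5. For fatty acid oxidation (21 genes) the medians were 0.66 and 0.73, and for lipogenesis (24 genes) 0.37 and 0.39. Antioxidant genes (39) had medians of 0.02 and 0.12, and 0 of them had a p under 0.05 in the difference by limma. With the lymphocyte score as a covariate the median difference of OXPHOS became −0.45 and that of the thermogenic list −0.27, from 0.01 and 0.27, while the median over all genes moved from 0.04 to −0.02. In that fit the differences of *Ucp1*, *Elovl3* and *Dio2* were −1.46, −1.46 and −2.08, and none of the 3 was called (limma). That score rose with cold in Atf4WT and not in Atf4AKO, so its part and that of genotype cannot be told apart.

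**Figure D3:**
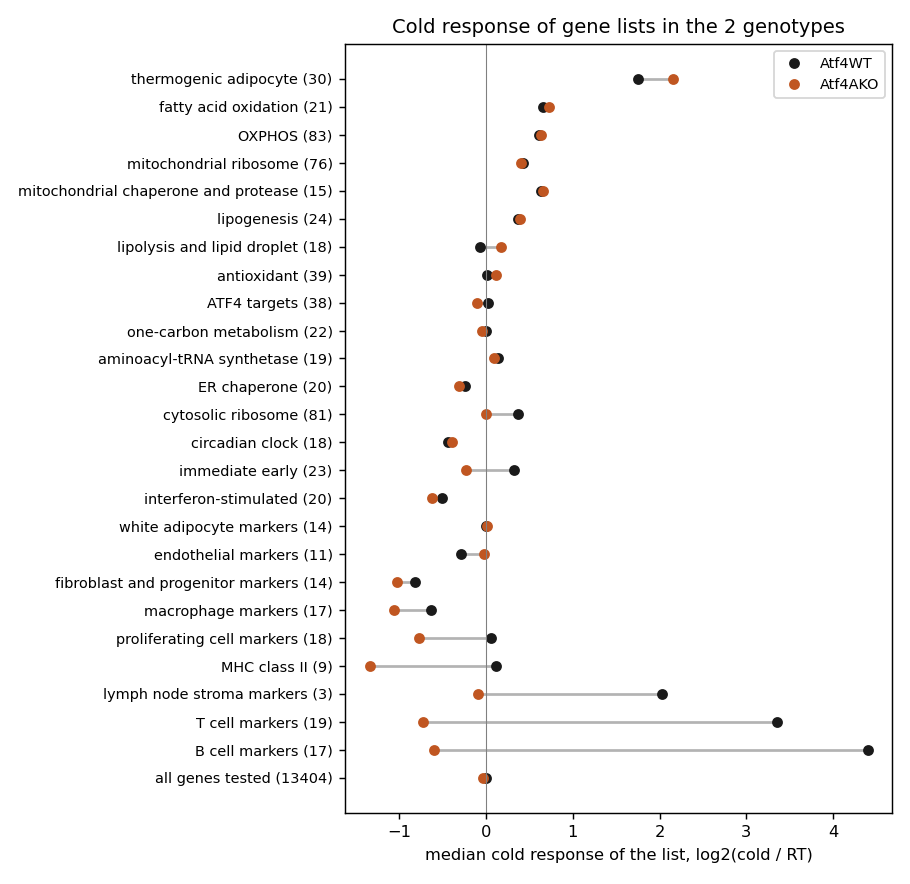
Median log2 cold response of each gene list in Atf4WT (black) and Atf4AKO (orange), with the number of tested genes in parentheses. The oxidative and mitochondrial lists have nearly equal medians, the cytosolic ribosome is at 0.37 against 0.00, and the B and T cell markers are at 4.39 and 3.35 in Atf4WT against −0.60 and −0.73 in Atf4AKO.

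Shared falls were led by genes of varied function. *Rprml* had a log2 response of −3.10 in Atf4WT and −3.40 in Atf4AKO. The estrogen sulfotransferase *Sult1e1* had −3.0 and −3.38 with a wide interval of the difference, −3.54 to 2.78. *Sntg2*, a syntrophin, had −2.73 and −2.49, with an interval of −0.45 to 0.95. The annexin *Anxa8*, the kinase *Sbk2*, the transcription factor *Mycl*, the aminopeptidase *Xpnpep2* and *Lrrn2* had responses of −3.10 to −2.20 in each genotype, and 0 of the 8 were called in the difference (limma, p from 0.213 to 0.929).

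The difference itself was mostly a rise seen in Atf4WT and not in Atf4AKO. Of the 559 genes with a lower response, 387 rose in Atf4WT and were not called in Atf4AKO, 66 were called only as falls in Atf4AKO, 19 rose in Atf4WT and fell in Atf4AKO, 1 rose in both, and 86 were called in neither. The 1 gene called up in both was *Aspg*, an asparaginase, at 2.56 and 1.91 (named after its values were seen). Median responses over the 559 genes, which the call itself selects, were 1.40 in Atf4WT and −0.57 in Atf4AKO. Split by temperature, Atf4AKO minus Atf4WT was 0.08 at RT and −1.83 in the cold at the median, and 557 of the 559 were below Atf4WT in the cold while 364 were above it at RT. Of all 13404 genes, 5449 were below in the cold and 6942 above at RT. The choice of genes by this difference favours both.

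The spread within groups followed a common order over these 559 genes. Cold Atf4WT replicate 0 was the lowest of its 3 libraries in 91.9% of them, against 30.4% of all genes tested. RT Atf4WT replicate 2 was the highest of its 3 in 85.0%, against 33.8%, and cold Atf4AKO replicate 0 was the highest of its 3 in 78.0%, against 29.4%. All 3 cold Atf4WT libraries were above the other 9 libraries in 205 of the 559, and in 370 of all 13404 genes, a pattern that the choice of genes by this difference favours. In the lymphocyte score these 3 libraries held the same place in their groups. Of its markers, 16 of 17 for B cells and 19 of 19 for T cells are among the 559, so this match is partly built in. The order was not computed without them.

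Lymphocyte genes were among the largest differences. *Cd4*, the coreceptor of helper T cells (chromosome 6, 124864692 to 124888221, minus strand, GRCm38), had 31.2, 18.3 and 77.9 counts in RT Atf4WT and 166, 544 and 1035 in cold Atf4WT. In RT Atf4AKO it had 63.2, 34.8 and 67.7 counts, and in cold Atf4AKO 44.6, 27.2 and 29.0. The cold Atf4WT libraries were all above the other 9, and the remaining groups overlapped. Its log2 response was 3.64 in Atf4WT and −0.68 in Atf4AKO, a difference of −4.31 ± 0.90 (SE, limma, adjusted p = 0.474).

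*Cd8b1*, a chain of the coreceptor of cytotoxic T cells, had 4.59, 5.77 and 24.1 counts in RT Atf4WT and 45.2, 511 and 491 in cold Atf4WT, against 11.2, 8.96 and 18.6 and then 12.8, 1.13 and 6.45 in Atf4AKO. Cold Atf4WT replicate 0 was far below the other 2 of its group but above the other 9 libraries. The difference was −5.67 (95% interval −8.69 to −2.65). All 19 tested T cell markers were called lower, among them the CD3 chains *Cd3d*, *Cd3e* and *Cd3g* at −4.25, −4.27 and −3.67, the kinases *Lck* and *Zap70* at −3.71 and −3.23, and the homing receptor *Ccr7* at −5.44. In Atf4WT 18 of the 19 rose, and in Atf4AKO 1 fell (*Cd247*).

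Of 17 B cell markers 16 were called lower, with a median response of 4.39 in Atf4WT and −0.60 in Atf4AKO. *Ms4a1* (CD20) had 5.51, 9.62 and 299 counts in RT Atf4WT and 281, 594 and 1149 in cold Atf4WT, and 48.3, 7.97 and 5.57 and then 13.8, 3.40 and 7.52 in Atf4AKO. RT Atf4WT replicate 2 was thus above cold Atf4WT replicate 0, and the difference of −5.19 had a wide interval, −9.15 to −1.23. *Pax5*, the factor that sets B cell identity, and *Spib* differed by −4.90 and −6.04. Without single libraries the list median ranged from −6.36 to −3.73 for B cells and from −4.73 to −3.22 for T cells.

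Of the 3 tested lymph node stroma markers, *Madcam1*, the addressin of high endothelial venules, and *Fut7*, which builds selectin ligands, were called lower, at −2.17 and −2.19. In cold Atf4WT *Madcam1* had 34.9, 52.8 and 49.0 counts, above the 5.77 to 26.1 of the other 9 libraries. The third marker was not called, at −1.81, and only 3 of the 8 markers chosen for this list were tested. Summed over the 3, cold Atf4WT had 607 to 1623 counts, RT Atf4WT 154 to 451, RT Atf4AKO 126 to 528 and cold Atf4AKO 107 to 422. The B cell, T cell, plasma cell, lymph node stroma and MHC class II lists held 52 of the 13404 genes tested. Of these 52, 46 were called lower and 0 higher, where 4.17% and 0.463% of all genes tested were. With so low a share called higher, the 0 carries little information. With the lymphocyte score as a covariate and its 36 markers left out, 318 of 13368 genes were called, 200 lower and 118 higher, and of the genes called without it 10 lower and 12 higher were called again. In that fit the median standard error was 0.29 in place of 0.21, and 0 genes passed the adjusted threshold (limma, 632 with a p under 0.05). Of 53 called genes that are named for the difference and were tested in that fit, 43 were no longer called, and the differences of *Cacna1i*, *Ciita*, *H2-Ob*, *Icam1* and *Socs3* turned positive.

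**Figure D4:**
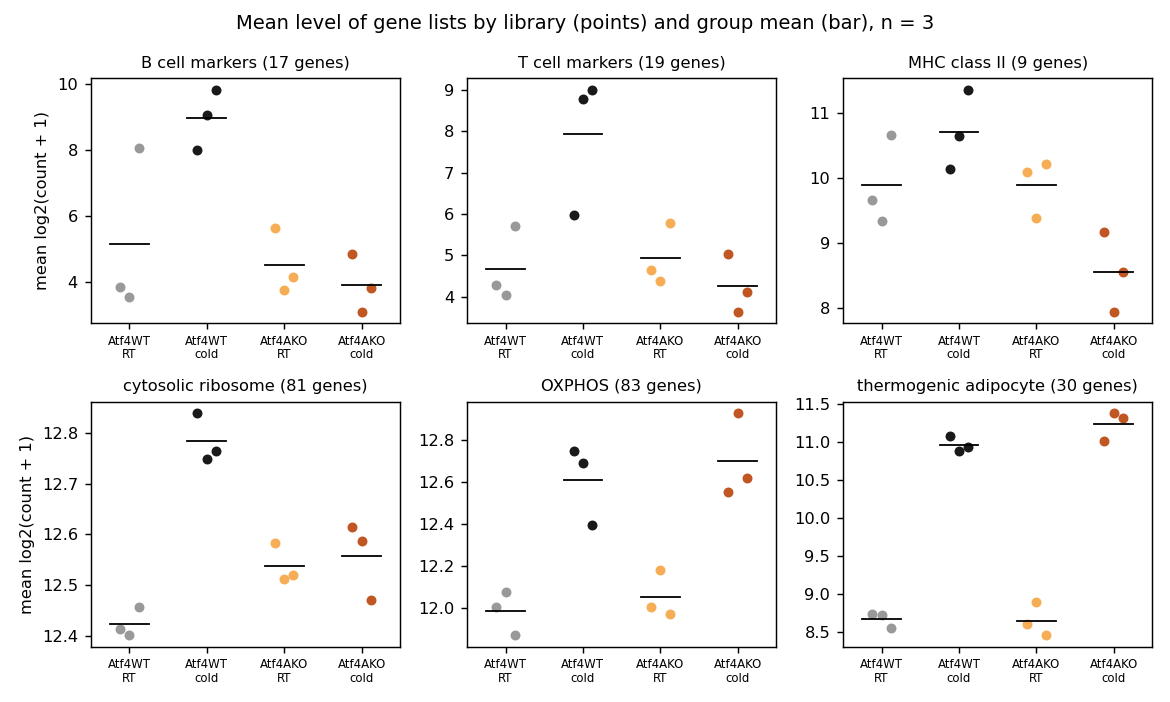
Mean log2(normalized count + 1) of 6 gene lists in each library (points) with the group mean (bar, n = 3). B and T cell levels are highest in cold Atf4WT and spread widely within groups, cytosolic ribosome levels are highest in the 3 cold Atf4WT libraries (12.7 to 12.8), and OXPHOS and thermogenic levels are higher after cold in both genotypes.

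MHC class II genes, which present peptides to helper T cells, were lower in their response, mostly with a fall in Atf4AKO. *H2-Eb1* had 5930, 4347 and 5937 counts in RT Atf4WT and 3754, 4973 and 7316 in cold Atf4WT, against 5593, 4991 and 7080 and then 2630, 1379 and 2151 in Atf4AKO. The 3 cold Atf4AKO libraries were below the other 9, which overlapped. Its response was −0.05 in Atf4WT and −1.55 in Atf4AKO, a difference of −1.50 ± 0.38 (SE, limma, adjusted p = 0.474).

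All 9 MHC class II genes were called lower, and 6 of the 9 fell in Atf4AKO while 2 (*H2-Oa* and *H2-Ob*, which are mostly B cell genes) rose in Atf4WT. The invariant chain *Cd74* differed by −1.72 and the transactivator *Ciita* by −2.14. H2 genes are a family of close copies, so unique mapping can split their reads. The list median of −1.53 ranged from −1.76 to −1.24 without single libraries and was −0.25 with the lymphocyte score as a covariate. Macrophage markers had a median difference of −0.25, and 13 of 17 were below 0, beside 43.5% over all genes. Of the 17, 1 was called lower (*Timd4*, −2.58), where 4.17% of all genes tested were. Their median turned to 0.38 at the highest when a library was left out. Cold Atf4AKO replicate 1 had the lowest macrophage level of all libraries, 7.99 as a mean log2 value against 9.92 and 10.2 in the other 2 of its group.

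*Dnase1l3*, a secreted nuclease of dendritic cells and macrophages (chromosome 14, 7964533 to 7994573, minus strand, GRCm38), had the smallest p of all genes. It had 53.3, 41.4 and 83.4 counts in RT Atf4WT and 112, 404 and 680 in cold Atf4WT. In Atf4AKO it had 54.8, 49.8 and 116 counts at RT and 12.8, 18.1 and 16.1 in the cold. The groups overlapped at RT, and in the cold the Atf4AKO libraries were below and 2 of the 3 Atf4WT libraries above all others. It rose 5.43-fold in Atf4WT and fell to 0.239 of its RT level in Atf4AKO, a difference of −4.51 ± 0.81 (SE, limma, adjusted p = 0.474). The call held in all 23 alternatives, and with the lymphocyte score as a covariate the difference was −2.57.

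The other genes among the 12 with the smallest p on this side were also mostly known from immune cells. *Il2ra*, the α chain of the interleukin-2 receptor, *Flt3*, the receptor of dendritic cell progenitors, *Stat4*, a factor of interleukin-12 signalling, and *Pik3cd*, the leukocyte PI3 kinase, differed by −1.90, −2.83, −3.83 and −2.37. *Ly6c2* (−2.89) and *Trim12a* (−0.69) have close copies in the genome. *Cybc1*, a chaperone of the phagocyte oxidase, differed by −0.61 and was lost as a call in 6 of 23 alternatives. With the lymphocyte score as a covariate, *Il2ra*, *Flt3*, *Stat4*, *Pik3cd*, *Ly6c2*, *Trim12a* and *Cybc1* were not called, at −1.18 to −0.28.

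**Figure D5:**
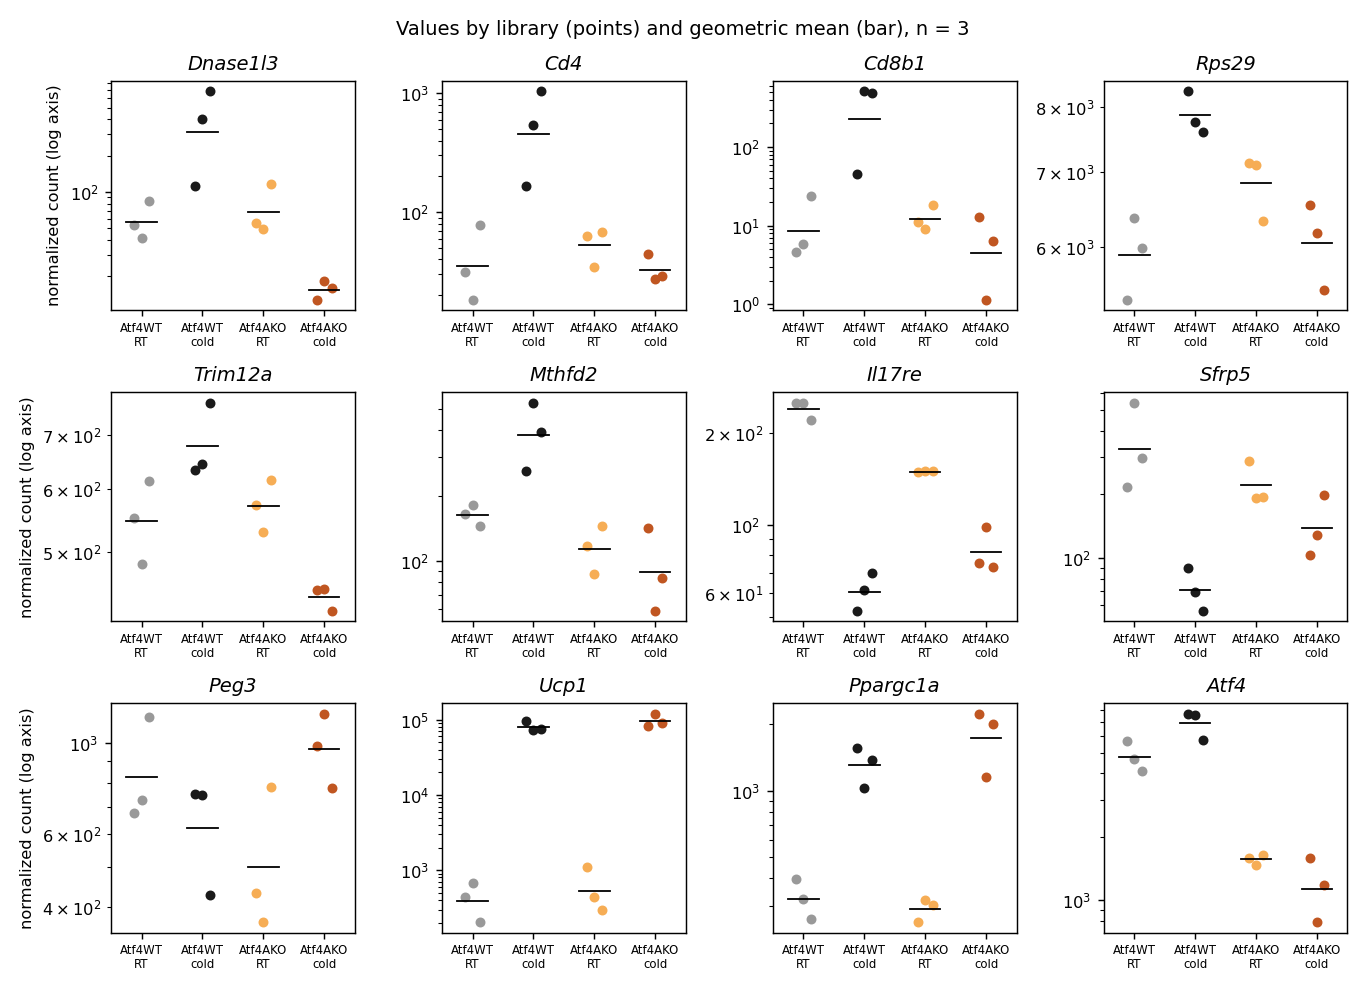
Normalized counts of 12 genes in each library (points, log axis) with the geometric mean of each group (bar, n = 3). *Dnase1l3*, *Cd4* and *Cd8b1* separate cold Atf4WT from cold Atf4AKO, *Ucp1* overlaps between the cold groups, and *Atf4* is lower in all 6 Atf4AKO libraries than in any Atf4WT library.

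Cytosolic ribosome genes shifted together by a small amount. *Rps29* (chromosome 12, 69157722 to 69159186, minus strand, GRCm38), a protein of the small subunit, had 5388, 6370 and 5995 counts in RT Atf4WT and 8259, 7755 and 7604 in cold Atf4WT, against 7138, 7097 and 6330 and then 6549, 6175 and 5497 in Atf4AKO. Cold Atf4WT was above all other libraries, and RT Atf4AKO and RT Atf4WT overlapped. It responded by 0.41 in Atf4WT and −0.18 in Atf4AKO, a difference of −0.59 ± 0.13 (SE, limma, adjusted p = 0.474). The difference sat at the fold threshold of 1.5, and 6 of 23 alternatives lost the call.

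*Rps20*, also of the small subunit, differed by −0.63, and these were the only 2 of 81 ribosomal protein genes called, although 60 of the 81 had a limma p under 0.05, all of them lower. The median response was 0.37 in Atf4WT and 0.00 in Atf4AKO. Of the 81 differences 76 were below 0, beside 43.5% over all genes, with a median of −0.38 beside 0.03. At RT the list was higher in Atf4AKO by a median of 0.15, and in the cold lower by 0.25. Without single libraries the median difference stayed between −0.43 and −0.34, and with the lymphocyte score as a covariate it was −0.40. In the sum of the 81 genes, RT Atf4WT had 647071 to 662605 normalized counts, cold Atf4WT 837568 to 852425, RT Atf4AKO 723940 to 750086 and cold Atf4AKO 692678 to 751768, so that only the Atf4AKO groups overlapped. Ribosomal protein genes have many processed pseudogenes, and how the unique mapping divided their reads was not tested.

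*Atf4* itself (chromosome 15, 80255184 to 80257541, plus strand, GRCm38) had 5669, 4670 and 4107 counts in RT Atf4WT and 7644, 7511 and 5756 in cold Atf4WT. In Atf4AKO it had 1594, 1470 and 1639 counts at RT and 1578, 788 and 1180 in the cold. Every Atf4AKO library was below every Atf4WT library, so the libraries followed their genotype labels. The log2 response was 0.53 in Atf4WT and −0.46 in Atf4AKO, a difference of −1.0 ± 0.31 (SE, limma, adjusted p = 0.478), called in all 23 alternatives. Gene counts do not show which part of the gene the remaining reads came from, nor from which cells.

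*Cacna1i*, a calcium channel gene that lies after *Atf4* on the same strand of chromosome 15 (80287238 to 80398279), had 0.919, 3.85 and 78.8 counts in RT Atf4WT and 84.2, 215 and 268 in cold Atf4WT. In Atf4AKO it had 1224, 1505 and 1701 counts at RT and 2900, 3477 and 2755 in the cold. Its level was thus higher in every Atf4AKO library, and the called difference of −3.19 (95% interval −6.37 to −0.0045) came with a wide spread within RT Atf4WT. In that group the 0.919 of replicate 0 is 1 read, so the log2 response of Atf4WT, 4.24, rests partly on values near the floor. *Grap2*, a T cell adaptor also near *Atf4*, differed by −4.17. Neither was called with the lymphocyte score as a covariate, at 0.98 for *Cacna1i* and −0.40 for *Grap2*. Of the list, the other 10 tested neighbours were not called, so 2 of 12 were called lower, where 4.17% of all genes tested were.

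ATF4 targets as a list had close medians in the genotypes. Over 38 genes the median response was 0.02 in Atf4WT and −0.10 in Atf4AKO, the median difference was −0.04 (−0.26 with the lymphocyte score as a covariate), and r across the genes was 0.87. *Mthfd2* and *Aldh18a1* were called lower (2 of 38, where 4.17% of all genes tested were) and 0 were called higher, a share near the background. Of the 38 differences 23 were below 0 and 15 above, beside 43.5% below 0 over all genes. A limma p under 0.05 was reached by 3 of the 38, all of them lower. *Mthfd2*, the mitochondrial folate enzyme that produces NADH or NADPH (chromosome 6, 83305691 to 83325908, minus strand, GRCm38), had 164, 182 and 146 counts in RT Atf4WT and 261, 536 and 391 in cold Atf4WT, against 117, 87.6 and 145 and then 141, 59.0 and 83.8 in Atf4AKO. Cold Atf4WT was above the other 9 libraries, and the Atf4AKO groups overlapped. It rose by 1.21 in Atf4WT and changed by −0.36 in Atf4AKO without passing the test, a difference of −1.57 ± 0.47 (SE, limma, adjusted p = 0.474). It was −0.83 and not called with the lymphocyte score as a covariate.

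*Aldh18a1*, which starts proline synthesis from glutamate, had 170, 65.8 and 134 counts in cold Atf4AKO against 202, 243 and 336 in cold Atf4WT, and 201 to 340 at RT over both genotypes. The genotypes overlapped at RT and were apart in the cold, and the difference was −1.16 (limma, adjusted p = 0.602). *Mthfd1l*, which releases formate from mitochondria, had 39.3, 12.5 and 27.9 counts in cold Atf4AKO and 53.4, 131 and 155 in cold Atf4WT, with a difference of −2.04 (limma, adjusted p = 0.481). Neither was called with that covariate, at −0.08 for *Aldh18a1* and −0.88 for *Mthfd1l*. Together with *Mthfd2*, *Mthfd1l* made 2 of 22 one-carbon genes called, where 4.63% of all genes tested were. The median difference of that list was 0.12, with 6 of 22 below 0, beside 43.5% over all genes.

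Other classical targets were not called in the difference. *Asns*, asparagine synthetase, had 2312, 2768 and 2062 counts in RT Atf4WT and 3855, 4361 and 3700 in cold Atf4WT. In Atf4AKO it had 1788, 2852 and 1961 counts at RT and 3231, 4575 and 3801 in the cold. The cold groups overlapped, and so did the RT groups. The log2 response was 0.75 in Atf4WT and 0.83 in Atf4AKO, with an interval of the difference from −0.48 to 0.65. *Chac1*, a glutathione-degrading enzyme, responded by −0.77 and −0.82 without passing the test in either genotype. The interval of its difference was wide, −1.75 to 1.65. *Fgf21*, the secreted hormone, rose by 2.63 in Atf4WT and 1.80 in Atf4AKO, with an interval of −2.51 to 0.86. *Asns*, *Chac1* and *Fgf21* were named for their promoters or their place among ATF4 targets, after their values were seen.

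Promoter sequence was examined for the ATF4 element because the members of this list differ in it. The letters TGATGNAAN (C/EBP-ATF response element) were searched on both strands of the 250 bases before the start site in RefSeq promoters (GRCm38.p6). A gene was counted if any of its promoters held a match. Of 27025 genes with a promoter 3.89% did, as did 254 of the 10662 tested genes with a promoter in the table (2.38%), 13 of 433 genes with a lower response (3.0%) and 0 of 46 with a higher response. Among ATF4 targets 9 of 33 (27.3%) held one, and their median difference was 0.08 against −0.04 for the 24 without. The windows below show 2 targets with a match, in capitals, and the target with the lowest difference. *Asns* and *Chac1* hold the match and differed by 0.08 and −0.05, the latter with the wide interval given above, and *Mthfd2* holds none in this window. The *Mthfd2* window lies within the GENCODE interval of the gene given above, so GENCODE and RefSeq place its start differently, and the GENCODE start was not searched. *Fgf21* also holds a match and differed by −0.83, so the 3 windows do not stand for the list. They read 5′ to 3′ on the strand of the gene, at chr6:7693210-7693459 (minus strand), chr2:119350992-119351241 (plus strand) and chr6:83317605-83317854 (minus strand).
Asns: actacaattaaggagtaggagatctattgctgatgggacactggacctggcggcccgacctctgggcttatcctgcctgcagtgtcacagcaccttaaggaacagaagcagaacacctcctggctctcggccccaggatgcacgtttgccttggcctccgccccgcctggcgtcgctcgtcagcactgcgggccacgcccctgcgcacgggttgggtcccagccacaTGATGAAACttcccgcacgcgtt
Chac1: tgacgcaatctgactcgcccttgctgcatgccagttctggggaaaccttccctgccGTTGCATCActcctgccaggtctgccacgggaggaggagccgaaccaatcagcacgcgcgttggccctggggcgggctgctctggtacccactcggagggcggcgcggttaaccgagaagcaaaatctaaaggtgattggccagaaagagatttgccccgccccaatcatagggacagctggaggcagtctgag
Mthfd2: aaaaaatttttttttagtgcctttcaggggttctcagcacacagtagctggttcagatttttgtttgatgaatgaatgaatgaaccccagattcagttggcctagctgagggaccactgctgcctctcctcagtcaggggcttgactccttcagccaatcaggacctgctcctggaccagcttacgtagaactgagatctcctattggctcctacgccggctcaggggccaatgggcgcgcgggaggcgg

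A match is a description of letters and not a bound site, and a window without one says nothing of ATF4 elsewhere in the gene. In *Asns* the match starts 23 bases before the start site, and in *Chac1* it lies on the opposite strand, 194 bases before it. Aminoacyl-tRNA synthetases (19 genes), another class of ATF4 targets, had median responses of 0.14 and 0.09 with 0 called in the difference (limma, 1 with a p under 0.05). ER chaperones (20 genes) had −0.25 and −0.31 with 0 called and 0 with a p under 0.05. The median differences were −0.04 and −0.10, and 15 of 19 and 17 of 20 were below 0, beside 43.5% over all genes. Without single libraries the medians stayed below 0, at −0.08 to −0.01 and −0.16 to −0.07.

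Immediate early genes, which follow acute stimulation, had a median response of 0.33 in Atf4WT and −0.23 in Atf4AKO, and 19 of 23 differences were below 0. Over all genes tested, 43.5% of the differences were below 0 and 4.17% of the genes were called lower. *Ier2* (−0.74) and *Socs3* (−1.38), the inhibitor of cytokine signalling, were called, and with the lymphocyte score as a covariate neither was, at −0.62 and 0.42. The median difference of −0.47 ranged from −0.59 to −0.09 without single libraries, and was 0.28 with the score. Proliferation genes were below 0 in all 18 members, with a median difference of −0.78 and 1 called (*Mcm3*, −0.84). With the score the median of that list was 0.33, and *Mcm3* was not called, at −0.18. Interferon-stimulated, white adipocyte, endothelial and circadian clock lists had medians of 0.07, 0.16, 0.16 and 0.18 with 0 called and 0 with a p under 0.05 (limma). Of 14 fibroblast and progenitor markers, *Thy1* and *Icam1* were called lower, at −1.21 and −0.86, and with the score they were at −0.53 and 0.17 and not called. *Thy1* is also carried by T cells.

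Higher responses in Atf4AKO were mostly smaller falls. Of the 62 genes, 24 fell in Atf4WT and were not called in Atf4AKO, 15 fell in both, 13 rose in Atf4AKO only, 2 rose in both and 8 were called in neither. The 2 that rose in both were *Cpt1b* and *Acaa1b*, a peroxisomal thiolase, at 0.65 and 1.30 (named after its values were seen). Atf4AKO was below Atf4WT at RT and above it in the cold for 61 of the 62, with medians of −0.38 and 0.46. The choice of genes by this difference favours that pattern, which 3518 of all 13404 genes had.

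*Il17re*, a receptor subunit for interleukin-17C (chromosome 6, 113458484 to 113470758, plus strand, GRCm38), led this side. It had 252, 251 and 221 counts in RT Atf4WT and 52.4, 61.2 and 69.7 in cold Atf4WT, against 149, 150 and 150 and then 75.5, 98.6 and 73.1 in Atf4AKO. All 4 groups were separate, with Atf4AKO below Atf4WT at RT and above it in the cold. It fell by 1.97 log2 units in Atf4WT and by 0.87 in Atf4AKO, a difference of 1.10 ± 0.24 (SE, limma, adjusted p = 0.474), and it was called in all 23 alternatives, with 1.05 under the lymphocyte score.

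*Sfrp5*, a secreted Wnt antagonist of adipocytes, had 218, 542 and 299 counts in RT Atf4WT and 90.4, 69.7 and 56.5 in cold Atf4WT. In Atf4AKO it had 289, 193 and 194 counts at RT and 104, 129 and 199 in the cold. The RT groups overlapped, and all cold Atf4AKO libraries were above all cold Atf4WT libraries, with a difference of 1.53.

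*Peg3*, an imprinted zinc finger gene, was the 1 gene that rose in Atf4AKO among the 12 with the smallest p on this side. Its counts were 677, 727 and 1151 and then 749, 748 and 427 in Atf4WT, and 433, 367 and 779 and then 979, 1175 and 777 in Atf4AKO. It rose by 0.95 in Atf4AKO and changed by −0.41 in Atf4WT without passing the test, and in Atf4AKO 1 RT library reached the lowest cold library. *Gli2*, a factor of hedgehog signalling, and *Prelp*, a matrix proteoglycan, fell by 1.23 and 2.23 in Atf4WT, with responses of −0.39 (not called) and −1.44 in Atf4AKO. *Abat*, which breaks down GABA, *Hr*, *Ric3*, *BC052040*, *BC034090* and the amino acid transporter *Slc7a8* differed by 0.64 to 1.00. With the lymphocyte score as a covariate *Il17re*, *Peg3*, *BC052040* and *Slc7a8* were called, and *Sfrp5*, *Gli2*, *Prelp*, *Abat*, *Hr*, *Ric3* and *BC034090* were not, at 0.42 to 1.08. Of these, *Abat* had a difference of 1.08 ± 0.52 (SE) with the score against 1.00 without it.

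Opposite responses, called up in Atf4WT and down in Atf4AKO, were found in 19 genes and the reverse in 0 (limma). *Dnase1l3*, *Il2ra* and *Stat4* are among them. *Fasl*, the death ligand of cytotoxic lymphocytes, had 4.59, 8.66 and 8.34 counts in RT Atf4WT and 13.4, 16.9 and 15.1 in cold Atf4WT, against 13.0, 16.9 and 26.0 and then 7.44, 5.67 and 2.15 in Atf4AKO. The groups of each genotype were separate, at levels of few reads. *Gpr141b*, *Col6a5*, *Gcsam*, *Rnase6*, *P2ry13* and *Chst10* had responses of 0.84 to 1.80 in Atf4WT and −1.78 to −1.04 in Atf4AKO. *Col6a5*, a collagen VI chain, was the 1 matrix gene here, with 61.6, 21.1 and 128 counts in cold Atf4WT against 7.44, 3.40 and 12.9 in cold Atf4AKO. With the lymphocyte score as a covariate *Dnase1l3* and *Fasl* were called, and *Il2ra*, *Stat4*, *Gpr141b*, *Col6a5*, *Gcsam*, *Rnase6*, *P2ry13* and *Chst10* were not, at −2.42 to −0.38.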

How the data were processed

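Messenger RNA of whole iWAT had been sequenced from strand-specific libraries in 12 samples, 3 for each of 4 groups. The authors cleaned reads with SOAPnuke, aligned them with STAR (mm10), assigned unique alignments to genes with featureCounts and scaled the counts with pyDESeq2. Versions and the strand setting of featureCounts are not given in the sources used here. The deposited values are a normalized signal, gene reads over the size factor of their library (called normalized counts). Dividing each library by its smallest value gave whole reads for 100% of values within 0.01, with a largest deviation of 0.000313 reads. No library has a listed gene at 0, so genes without reads in some library were not analysed here.

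Differences were tested with limma 3.58.1 in R 4.3.3 (lmFit, eBayes with a trend) on log2(normalized count + 1), which understates changes of low genes. The fit held the 4 group means and no covariate, with Benjamini-Hochberg adjustment over 13404 genes, and 755 genes were under the filter at a mean of 10. Calls follow the study (fold change over 1.5, unadjusted p under 0.05). The study names DESeq2 for its calls, and the recovered reads were therefore also tested with DESeq2 1.42.0, pyDESeq2 0.5.4 and edgeR 4.0.16 as alternatives. Others were pseudocounts of 0.5 and 5, no filter or a mean of 50, rescaling to a common 75th percentile, array weights, a replicate block, the lymphocyte score as a covariate, and leaving out each library. The fit was tested on simulated data. Libraries held 25719476 to 29105147 reads on listed genes, and replicates of each group differed by more than counting error.

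Named genes were the 12 called genes with the smallest p in each direction (mean of at least 50), the 8 largest shared rises and falls, up to 10 called in opposite directions, *Atf4*, *Mthfd2*, *Ucp1*, *Ppargc1a*, *Cox8b*, and called members of the gene lists. Exceptions are stated, and 2 of these genes are not reported here. The genes, lists and tests were chosen with earlier results of these data known. Positions came from GENCODE on GRCm38, and promoters from RefSeq on GRCm38.p6. Python 3.11.15, numpy 2.4.6, pandas 2.3.3 and matplotlib 3.10.9 were used for the remaining steps.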

Additional observations from a re-analysis of the deposited data

Results flagged for a closer look

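In 19 genes the cold response was called in opposite directions, up in Atf4WT and down in Atf4AKO, with an adjusted p of the difference between 0.474 and 0.481 (limma). These genes were chosen by both responses, which fix the sign of the difference, so its p is no separate support. *Dnase1l3* differed by −4.51 (log2), *Stat4* by −3.83, *Col6a5* by −3.58 and *Bank1*, a B cell scaffold protein, by −3.49. *Cd7*, a surface protein of T and NK cells, differed by −3.07, *P2ry13*, an ADP receptor, by −3.02, *Ifi206* by −2.78, *Fasl* by −2.76 and *Chst10* by −2.67. *Prf1*, the perforin of cytotoxic lymphocytes, differed by −2.36, *Rnase6* by −2.23, *Siglech*, a lectin of plasmacytoid dendritic cells, by −2.16, *Gcsam*, a germinal centre gene, by −2.11 and *Gpr141b* by −2.11. *Cxcr3*, a chemokine receptor of activated T cells, differed by −1.98, *Il2ra* by −1.90, *Fut4* by −1.84, *Aff3* by −1.63 and *Sp110* by −1.35. The lymphocyte score, of which *Bank1* is a marker, was higher in the cold Atf4WT libraries (6.94 to 9.41) than in the cold Atf4AKO libraries (3.39 to 4.95). At RT it was 3.82 to 6.83 in Atf4WT and 4.09 to 5.13 in Atf4AKO, so the RT and cold libraries of Atf4AKO overlapped.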

How the results depend on the processing

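The difference of cold responses gave 621 called genes, 318 with the lymphocyte score as a covariate, 0 with adjusted p under 0.05 in its place, and 409 to 868 without single libraries (409 without cold Atf4WT replicate 2). Genes with an adjusted p under 0.05 numbered 0 in limma, 132 in DESeq2, 133 in pyDESeq2 and 0 to 64 without single libraries (64 without cold Atf4WT replicate 0). The adjusted threshold in place of that of the study gave 4273 genes for the cold response of Atf4WT and 3467 for that of Atf4AKO, and leaving out libraries gave 2537 to 3090 and 1864 to 2697. The slope of Atf4AKO on Atf4WT was 0.58 with the score and 0.37 to 0.57 without single libraries. Of the gene lists 4 had a median difference under −1, and 4 to 5 did without single libraries. With the score 0 did, in a fit that left out the markers of 2 of those 4 lists (B and T cells). The difference of *Ucp1* became positive without RT Atf4AKO replicate 0 (0.37) or RT Atf4WT replicate 2 (0.32). It was −0.56 at the lowest without single libraries (RT Atf4AKO replicate 2) and −1.46 with the score. That of *Cox8b* did so with array weights (0.0054) and without RT Atf4AKO replicates 1 (0.057) or 2 (0.021), cold Atf4AKO replicate 0 (0.085), RT Atf4WT replicate 2 (0.014) or cold Atf4WT replicate 1 (0.079). It was −0.29 at the lowest without single libraries (RT Atf4AKO replicate 0) and −0.72 with the score. The causes were not tested. The other scalings, pseudocounts and filters kept these counts within 1.5 times. Of 959 alternative values, 891 kept direction and side of the threshold or moved little. With the score 43 of 53 named genes lost their call.

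With the replicate number as a block 744 genes were called and 0 passed the adjusted threshold. The numbers were not taken to pair the libraries, since 9 of 18 same-numbered pairs, and not every pair, had correlated deviations over 0.1 (range −0.19 to 0.39), beside 9 of 36 pairs with other numbers. All 6 pairs of replicate 1 were over 0.1 (0.18 to 0.39), against 1 of 6 for replicate 0 and 2 of 6 for replicate 2. By the closest library, 6 of 12 matched their own number.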
